A study of Homo sapiens with 2 samples.

Results

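Chromosomes 17 and 19 are the most gene-dense of the human chromosomes, and the peaks that brachyury ChIP-seq gave on them are described here. The members were all peaks of the deposited list whose chromosome was 17 or 19, with positions read as hg19 (GRCh37), the build named in the submitters' processing notes. There were 450 such peaks among 10342 in the list (4.35%, Wilson 95% interval 3.98 to 4.76), 297 on chromosome 17 and 153 on chromosome 19. The cells were MDA-MB-231, a widely used line from a human breast carcinoma, in their wild-type state with no knockdown or overexpression. The peak list compared 1 library labelled only with the name of the line, taken as the ChIP library made with an antibody to brachyury, with 1 input library for which no antibody was used. There were no replicates, the depth of both libraries is unknown, and every interval below covers counting error only.

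Brachyury, the founding T-box transcription factor, directs the formation of posterior mesoderm and notochord in the embryo and is expressed again in several carcinomas. Chromosome 19 is rich in genes for zinc finger proteins of the KRAB type, transcriptional repressors many of which bind transposable elements, and these genes lie in long tandem clusters. Chromosome 17 carries the HOXB cluster, whose homeobox genes give cells along the body axis their position. In RefSeq, 250 of the 517 protein-coding genes with a numbered ZNF symbol were on chromosome 19, against 11 on chromosome 17. The longest unbroken run of neighbouring ZNF genes on chromosome 19 had 27 members, from ZNF737 to ZNF681. RefSeq also placed 10 HOXB genes on chromosome 17, in the order HOXB1 to HOXB9 and, after PRAC2 and PRAC1, HOXB13.

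The label gene-dense was checked first. RefSeq listed 1451 protein-coding genes for chromosome 19 and 1169 for chromosome 17. The stretch from the first to the last peak is called the span of a chromosome, and per Mb of it this gave 24.9 and 14.5 genes, the highest and second highest values of 23 chromosomes with Y left aside. The peaks were not in proportion to the genes. Chromosome 19 held 7.24% of the coding genes and 1.48% of the peaks, and chromosome 17 held 5.83% of the genes and 2.87% of the peaks. For every 100 coding genes there were 10.5 peaks on chromosome 19 (exact Poisson 95% interval 8.94 to 12.4) and 25.4 on chromosome 17 (22.6 to 28.5), where the whole list had 51.6. Chromosome 19 was the lowest of the 23 in this measure and X the next, at 11.8 (9.59 to 14.3). Their intervals overlapped, and over all annotated genes both X and chromosome 22 were lower than 19. Across the 23 chromosomes gene density and peak density had a Spearman's rho of -0.16, and of -0.15 over the 21 without 17 and 19, given as a description because all points share 1 list.

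**Figure D1:**
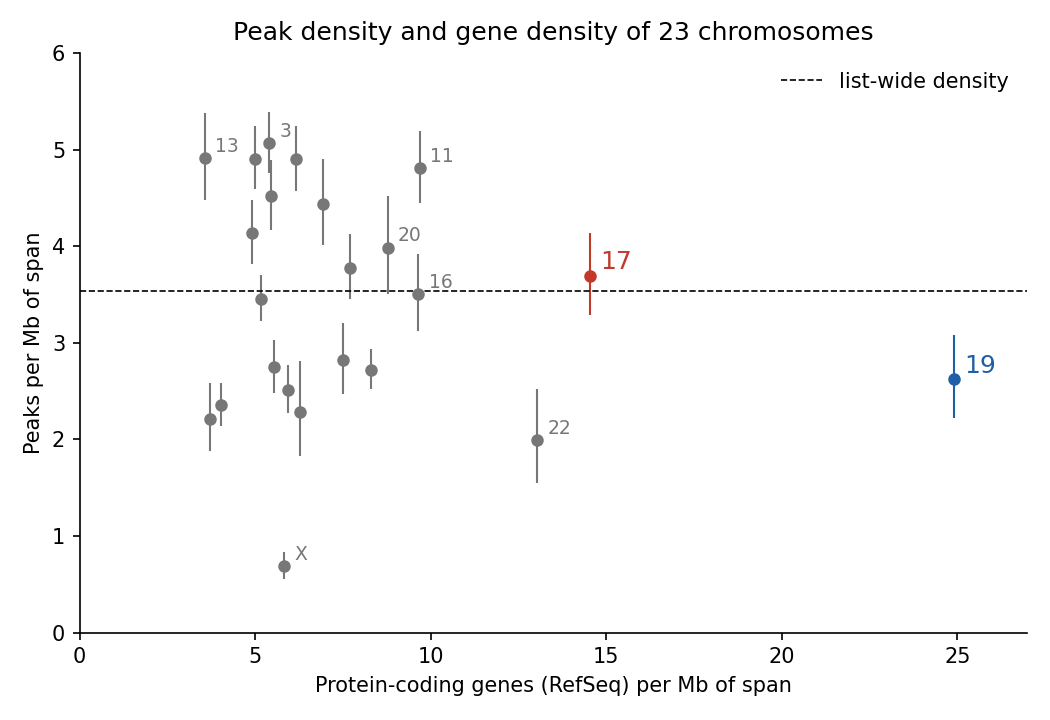
Peaks per Mb of span plotted against protein-coding genes per Mb of span for 23 chromosomes, with exact Poisson 95% intervals as bars, chromosome 17 in red, 19 in blue, the others in grey and some of them numbered. Chromosome 19 stood farthest to the right with 24.9 genes per Mb and below the dashed list-wide density of 3.54 peaks per Mb, while the interval of chromosome 17 spanned that line.

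Density per Mb differed between the pair. Chromosome 17 carried 3.70 peaks per Mb of its span of 80.4 Mb (95% interval 3.29 to 4.14), and chromosome 19 carried 2.63 per Mb of its 58.3 Mb (2.23 to 3.08). The ratio of the first to the second was 1.41 (exact conditional 95% interval 1.15 to 1.72). Against the list-wide 3.54 per Mb, chromosome 19 was lower (exact two-sided binomial test, adjusted p = 1.7e-04 over 24 chromosomes) and chromosome 17 was not called (adjusted p = 0.47). This test called 79.2% of the 24 chromosomes, so a call by itself sets chromosome 19 apart from few others. Its p-values are too small, because it takes each peak as an independent event although peaks cluster. Among chromosomes of like size or gene density, 16 had 3.5 peaks per Mb (3.12 to 3.92), 20 had 3.99 (3.5 to 4.52) and 22 had 1.99 (1.55 to 2.52). The interval of chromosome 17 overlapped those of 16 and 20, and that of chromosome 19 overlapped that of 22. Counted from the lowest, chromosome 19 ranked 7 and chromosome 17 ranked 13 of 23.

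The arms were divided at the longest interval with no peak, which lay from 22161793 to 25373348 on chromosome 17 (3.21 Mb) and from 24575387 to 27884370 on chromosome 19 (3.31 Mb). The short arm was the denser side of chromosome 17 and the sparser side of chromosome 19. On chromosome 17 there were 104 peaks on the short arm, at 4.82 per Mb (3.94 to 5.84), and 193 on the long arm, at 3.47 per Mb (3 to 4). The ratio of short to long arm was 1.39 (exact conditional 95% interval 1.08 to 1.77). It fell to 1.13 (0.77 to 1.66) among peaks at or above the median score of the list, an interval that includes equal densities. On chromosome 19 the short arm held 47 peaks at 1.98 per Mb (1.45 to 2.63) and the long arm 106 at 3.40 per Mb (2.78 to 4.11). This ratio was 0.58 (0.40 to 0.83), and 0.44 (0.24 to 0.76) among those higher-scoring peaks. The interval of the long arm of chromosome 19 included the list-wide density, and that of its short arm lay below it.

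**Figure D2:**
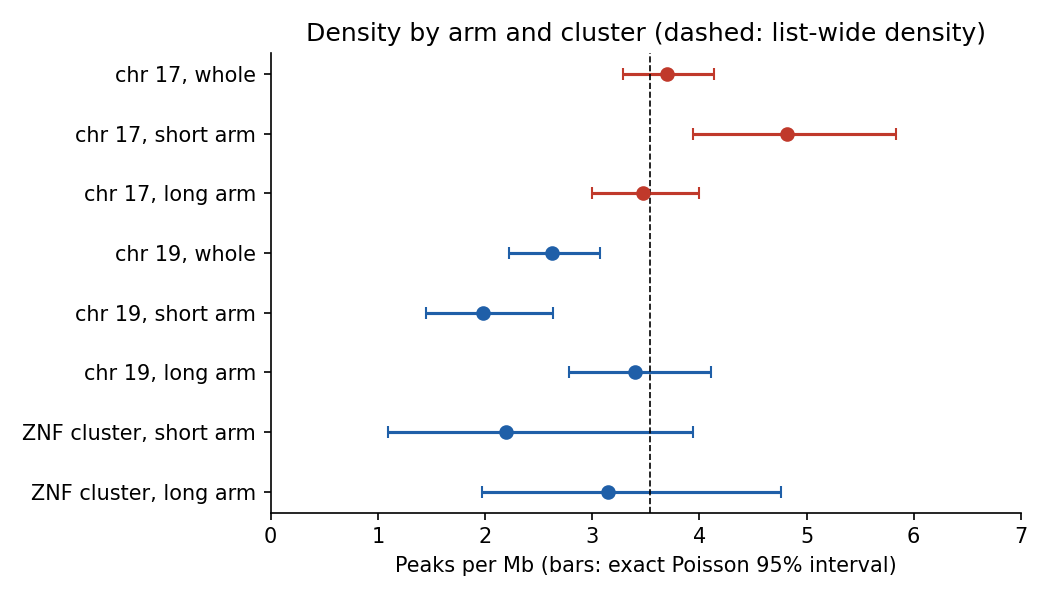
Peaks per Mb with exact Poisson 95% intervals for chromosomes 17 (red) and 19 (blue), their arms and both zinc finger (ZNF) clusters of chromosome 19, with the list-wide density of 3.54 per Mb dashed. The short arms of the pair sat on opposite sides of the dashed line, at 4.82 and 1.98 per Mb, and both long arms lay near it.

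Density was then followed along each chromosome in whole windows of 5 Mb, each tested against the mean of 17.7 ± 9.42 peaks (SD over 555 windows of the list, exact binomial test with adjustment over all of them). The p-values of the window tests, at every window size, are also too small, because peaks are again taken as independent. The variance of these 555 counts was 5.03 times their mean. The 15 windows of chromosome 17 held from 9 to 29 peaks with a median of 17, and the 10 windows of chromosome 19 held from 7 to 21 with a median of 12.5. The fullest windows were 10 to 15 Mb on chromosome 17 with 29 peaks and 35 to 40 Mb on chromosome 19 with 21. The emptiest were 30 to 35 Mb on chromosome 17 with 9 peaks and 5 to 10 Mb on chromosome 19 with 7. Of the 25 windows, 1 was called higher, the fullest of chromosome 17 (exact binomial test, adjusted p = 0.039), against 13.2% of all windows in the list. Another 1 was called lower, the emptiest of chromosome 19 (exact binomial test, adjusted p = 0.031), against 16.4% of all windows. In either direction 8% of the windows of the pair were called, where the list had 29.5%. This share ran from 0% on chromosomes 15 and 21 to 96.4% on X. It was 6.67% on 17, 10% on 19, 11.8% on 14 and 12.8% on 2, so a low share is not particular to the pair. Both calls on the pair depended on the setting. No window of the pair was called higher by the exact binomial test at either score limit (the median of the list, or 60), with windows moved by 2.5 Mb, with windows of 2 Mb, or among windows with at least 1 peak. These settings called from 3.42% to 13.3% of all windows in the list higher. At both score limits the window called lower was the next one of chromosome 19, from 10 to 15 Mb. The list then had 7.39% (median) and 8.47% (60) of its windows called lower. From 5 Mb onwards the windows of chromosome 17 held 21, 29, 24, 11, 17, 9, 10, 17, 23, 28, 22, 18, 15, 15 and 16 peaks, 8 of them fewer than the list mean. Those of chromosome 19 held 7, 9, 10, 11, 16, 12, 21, 17, 13 and 13, and the one with 21 was the only one of the 10 above the mean.

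Chromosome 17 had a sparse stretch between denser ones. From 25 to 40 Mb there were 36 peaks, at 2.40 per Mb (1.68 to 3.32). From 5 to 20 Mb there were 74, at 4.93 per Mb (3.87 to 6.19), and from 45 to 60 Mb there were 73, at 4.87 per Mb (3.81 to 6.12). These stretches were chosen after the windows had been seen, so the contrast is a description. In windows of 10 Mb, 30 to 40 Mb was called lower with 19 peaks (exact binomial test, adjusted p = 0.011), and 10 to 20 Mb with 53 (adjusted p = 0.013) and 50 to 60 Mb with 50 (adjusted p = 0.036) were called higher, where the list mean was 35.4. On chromosome 19 the window from 10 to 20 Mb was called lower, also with 19 peaks (exact binomial test, adjusted p = 0.011). Such calls were common at this size. Of the 264 windows of 10 Mb in the list, 25% were called higher and 25.8% lower, against 2 and 2 of the 11 of the pair. Windows of 1 Mb, added after the data had been seen, placed the densest point of chromosome 17 at 51 to 52 Mb with 11 peaks, a count that 1.07% of 2895 such windows in the list reached. The next fullest, at 10 to 11 Mb, held 10.

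On chromosome 19 the long intervals with no peak lay mostly on the short arm. After the one that divides the arms, the longest ran from 9284688 to 12298884 (3.01 Mb), and contained the only window of 2 Mb on either chromosome that was called, from 10 to 12 Mb with 0 peaks against a list mean of 7.05 (exact binomial test, adjusted p = 0.0225). Of the 1434 windows of 2 Mb in the list, 6.07% were called lower and 3.42% higher, against 1 and 0 of the 67 of the pair. The interval of 3.01 Mb was followed by one from 16640307 to 18620437 (1.98 Mb). Chromosome 19 had 2 of the 53 intervals of over 3 Mb in the list. On chromosome 17 the next longest were 1.66 Mb, from 4324593 to 5988779, and 1.56 Mb, from 30914606 to 32470982. The median gap between neighbouring peaks was 176 kb on chromosome 17 (exact 95% interval 144 to 208) and 268 kb on chromosome 19 (220 to 329), against 158 kb in the list. Gaps under 10 kb made up 4.73% of the gaps of chromosome 17 (Wilson 95% interval 2.84 to 7.78), 2.63% of those of chromosome 19 (1.03 to 6.57) and 5.05% of all gaps.

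**Figure D3:**
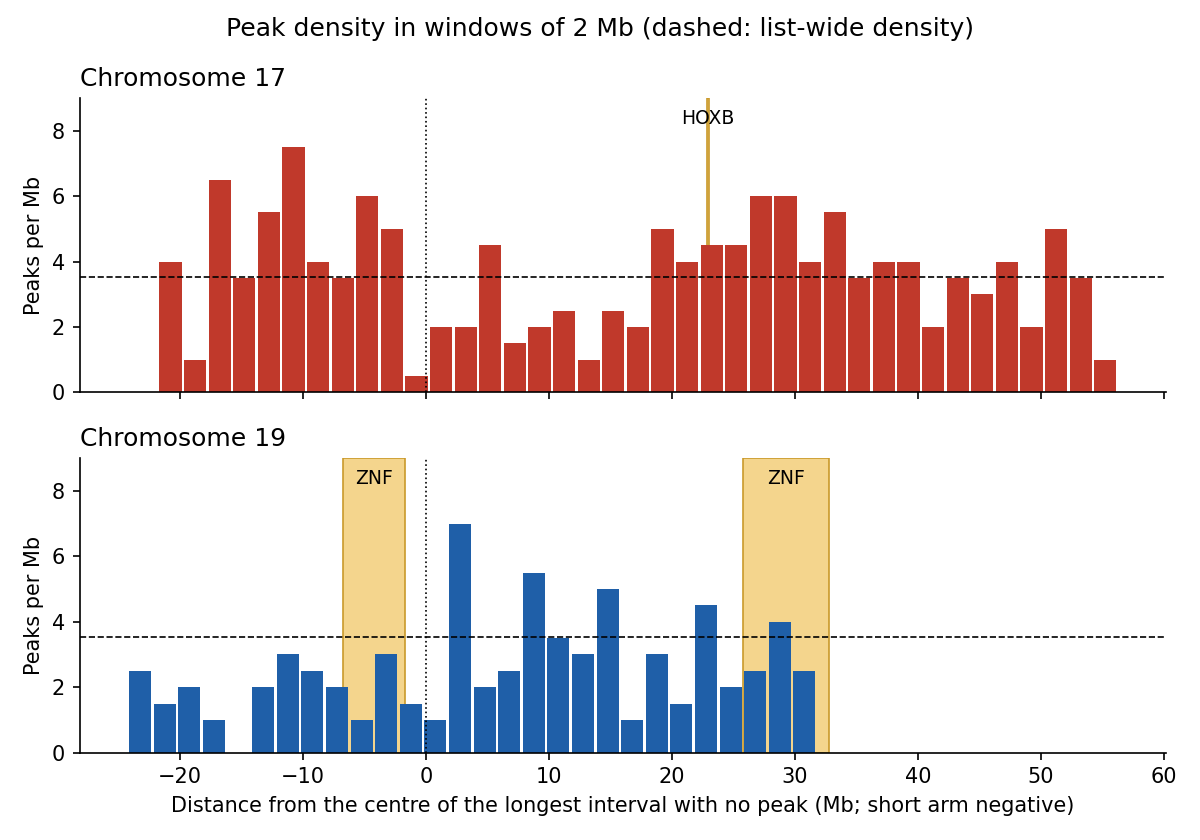
Peaks per Mb in whole windows of 2 Mb along chromosomes 17 and 19, by distance from the centre of the longest interval with no peak, with the list-wide density of 3.54 per Mb dashed and the HOXB region and both zinc finger (ZNF) clusters shaded. Most bars of the short arm lie above the dashed line on chromosome 17 and below it on chromosome 19, and the start of the long arm of chromosome 17 is low.

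The zinc finger cluster next to the centromere, from 19.5 to 24.5 Mb on chromosome 19, was taken next. KRAB zinc finger genes such as ZNF91, a repressor of transposable elements, belong to it. It held 11 peaks, at 2.20 per Mb (1.10 to 3.94), against 2.67 per Mb (2.25 to 3.14) in the rest of the chromosome. The ratio was 0.83 with an exact conditional 95% interval of 0.40 to 1.52, so no difference could be shown with 11 peaks. The short arm, which holds the cluster, had 1.98 per Mb (1.45 to 2.63), and the cluster did not lie below it. As few peaks or fewer were found in 29.0% of the 555 windows of 5 Mb. Within the cluster the 5 successive stretches of 1 Mb held 1, 2, 0, 4 and 4 peaks, the last 2 lying nearest the centromere. The peaks covered 0.21% of the bases of the cluster.

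The 11 scores ran from 50.54 to 103.19 with a median of 56.75 (exact 95% interval 51.0 to 70.9), beside a median of 58.5 in the rest of the chromosome. The score is the negative log10 of the MACS p-value times 10, and the calling limit was 50. In order along the chromosome they were 50.54, 56.75, 55.30, 69.51, 57.23, 70.78, 70.85, 52.52, 51.01, 103.19 and 52.57. The highest belonged to a narrow peak of 477 bp from 24127074 to 24127550, which was both the narrowest and the second highest peak of chromosome 19. It was followed by a peak from 23294955 to 23295838 with 70.85 and one from 22985588 to 22986472 with 70.78. The lowest, 50.54, was at 19800392 to 19801516. Of the 11 peaks, 4 scored 60 or more.

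The second zinc finger cluster, from 52.0 to 59.0 Mb at the end of the long arm, also carries the genes of the leukocyte immunoglobulin-like receptors and of the killer-cell immunoglobulin-like receptors. It held 22 peaks, at 3.14 per Mb (1.97 to 4.76), against 2.56 per Mb (2.14 to 3.03) in the rest of the chromosome. The ratio was 1.23 (0.75 to 1.94), and 43.8% of 388 windows of 7 Mb in the list had as few peaks or fewer. The peaks were evenly laid, with 2 to 4 in each of the 7 stretches of 1 Mb. Their median score was 62.8 (exact 95% interval 56.2 to 66.3), with extremes of 51.93 and 79.98. Of the 22 peaks, 15 scored 60 or more (68.2%, Wilson 95% interval 47.3 to 83.6), against 42.0% (33.9 to 50.5) of the 131 peaks in the rest of the chromosome. These intervals overlap, which does not decide whether the shares differ, and the difference was not tested. No peak of the cluster reached 100.

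The highest scores of this cluster were 79.98 from 56883483 to 56884451, 74.32 from 55009779 to 55010865 and 71.27 from 54287781 to 54288994. Their widths were 969, 1087 and 1214 bp. Among peaks with a score of at least 60 alone, the cluster was 2.0 times as dense as the rest of chromosome 19 (exact conditional 95% interval 1.05 to 3.59), while over all its peaks the interval included equal densities. For peaks at or above the median score of the list the ratio was 1.93 (1.01 to 3.45). Both clusters were compared with the rest of their own chromosome only, and no peak was assigned to a gene. For the second cluster that rest includes the whole short arm. Peaks scoring 60 or more numbered 17 in 23.8 Mb there, against 53 in 31.2 Mb on the long arm, the cluster included. Over all peaks the long arm had 3.40 per Mb (2.78 to 4.11), against 3.14 in the cluster. A ratio to the rest of the long arm was not computed, so these values do not separate the cluster from its arm.

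The HOXB region of chromosome 17, from 46.60 to 46.81 Mb, held 1 peak. It ran from 46767089 to 46768416, was 1328 bp wide and scored 50.04, just over the calling limit of 50, so that 99.7% of the list scored as high or higher. This amounts to 4.76 per Mb with an exact Poisson 95% interval of 0.12 to 26.5, and nothing can be read from it about the density of the region. In windows of 0.21 Mb over the whole list, 48.4% held at least 1 peak. The nearest peaks before the region, from 46333113 to 46334299 (score 64.68) and from 46336236 to 46337378 (score 54.18), lay 434 and 431 kb from the centre of the HOXB peak. The nearest one after it, from 47069071 to 47070238 (score 50.56), lay 302 kb away. With 0.5 Mb added on both sides the region held 6 peaks, at 4.96 per Mb (1.82 to 10.8), with scores from 50.04 to 73.64. Without the gene positions of this build, the HOXB peak was not placed relative to a single HOXB gene.

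**Figure D4:**
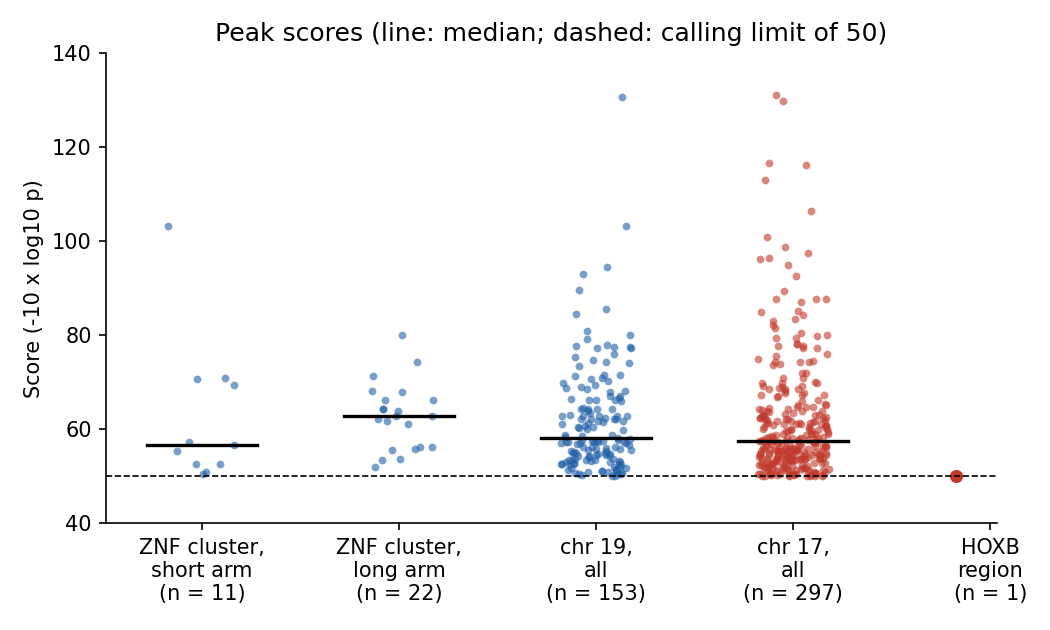
Score of each peak (negative log10 of p, times 10) in both zinc finger (ZNF) clusters, on the whole of chromosomes 19 and 17, and in the HOXB region, with medians as lines and the calling limit of 50 dashed. Most points lie within 20 units of the limit, the long-arm cluster has a median of 62.8 against 58.1 on its chromosome, and the HOXB point sits on the limit.

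Scores of the pair lay close to the calling limit. The median was 57.6 on chromosome 17 (exact 95% interval 56.5 to 59.0), the lowest of 23 chromosomes, and 58.1 on chromosome 19 (57.1 to 61.5), beside 58.8 in the list (58.5 to 59.0). Chromosome 22 stood next to chromosome 17, at 57.7 (55.5 to 59.2), and then chromosome 14, at 57.9 (57.2 to 59.4). The intervals of chromosomes 17 and 19 overlapped that of the list, which includes their peaks, and no difference was tested. Medians in windows of 5 Mb ranged from 52.2 to 62.3 on chromosome 17 and from 53.1 to 66.4 on chromosome 19. On chromosome 17, 122 peaks scored 60 or more (41.1%, Wilson 95% interval 35.6 to 46.8), and on chromosome 19 there were 70 (45.8%, 38.1 to 53.7), against 45.7% of the list. By arm this share was 36.5% on the short and 43.5% on the long arm of chromosome 17, and 36.2% and 50% on those of chromosome 19. The Wilson intervals of the arms overlapped on both chromosomes, and the difference between arms was not tested.

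Only 7 peaks of chromosome 17 and 2 of chromosome 19 scored 100 or more. Together they made up 2% of the members (1.06 to 3.76), against 2.92% of the list. The highest on chromosome 17, 131.17, was the second peak of the chromosome, from 591623 to 592716. The next were 129.77 from 52440019 to 52440519, 116.58 from 70628116 to 70629606, 116.26 from 7843639 to 7844537 and 112.99 from 53468469 to 53469406. In the list 30 peaks scored 131.17 or more. On chromosome 19 the highest was 130.56, from 33143041 to 33143531, followed by the cluster peak of 103.19, by 94.49 from 32930080 to 32930597, by 93.07 from 40081516 to 40082608 and by 89.54 from 35465202 to 35466040. The 3 highest of chromosome 19 were also its 3 narrowest, with widths of 491, 477 and 518 bp. The exact value 130.56 was also the highest score of chromosomes 4 and X, and 103.19 was also that of chromosome 22.

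Peak width was 939 bp at the median on chromosome 17 (exact 95% interval 908 to 958) and 945 bp on chromosome 19 (910 to 982), against 960 bp in the list (956 to 963). The interquartile ranges were 818 to 1037 and 845 to 1044 bp. A width of at least 1500 bp was found in 4 peaks of chromosome 17 (1.35%, Wilson 95% interval 0.52 to 3.41) and 3 of chromosome 19 (1.96%, 0.67 to 5.61), against 5.23% of the list (4.82 to 5.68). Shares differed widely between chromosomes, from 0% on X to 21.7% (13.6 to 32.8) on 22, with 17.1% on 8 and 16.1% on 5, and 18 of the 23 lay below the share of the list. Counted from the lowest, chromosome 17 ranked 2 and chromosome 19 ranked 6, with 7 (1.51%) and 4 (1.56%) next to chromosome 17, so the low share is not particular to the pair. The interval of chromosome 17 lay wholly below the share of the list and that of chromosome 19 included it. Narrow peaks of under 700 bp made up 7.41% of chromosome 17 (4.94 to 11) and 8.50% of chromosome 19 (5.03 to 14), beside 7.94% of the list.

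Of the peaks beside the intervals that divide the arms, 1 on each chromosome was among its 3 widest. The widest peak of chromosome 19, at 6053 bp, ran from 27884371 to 27890423 with a score of 77.96 and was the first of the long arm. The next widest, from 48055971 to 48057656 and from 50628511 to 50630047, had 1686 and 1537 bp. On chromosome 17 the second widest peak, at 1962 bp from 22159831 to 22161792 with a score of 52.15, was the last of the short arm. The peaks on the other side of these intervals were 934 bp (the first of the long arm of chromosome 17) and 1254 bp (the last of the short arm of chromosome 19) wide, and those beside the interval of 3.01 Mb on chromosome 19 were 839 and 1171 bp. The widest peak of chromosome 17, at 1965 bp, ran from 59011763 to 59013727 with a score of 87.15, and the next after these, at 1749 bp, from 17737325 to 17739073 with 55.90. The narrowest peaks of chromosome 17 were those of 500 bp from 43505086 to 43505585 (score 106.42), of 501 bp from 52440019, already named for its score, and of 551 bp from 25766134 to 25766684 (score 87.78).

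Score and width were not related in 1 direction. In the 12 members narrower than 600 bp the median score was 86.5, and 4 of the 9 members with a score of at least 100 were among them. It was 64.8 in the 23 members of 600 to under 700 bp, 55.7 in the 111 of 900 to under 1000 bp and 61.9 in the 50 of 1200 bp or more. Spearman's rho over the members was -0.13, against 0.035 over the list, given as a description. The same sequence of a high, a low and a higher median over these classes was seen in the list, with 83.5, 65.3, 55.5 and 64.9.

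**Figure D5:**
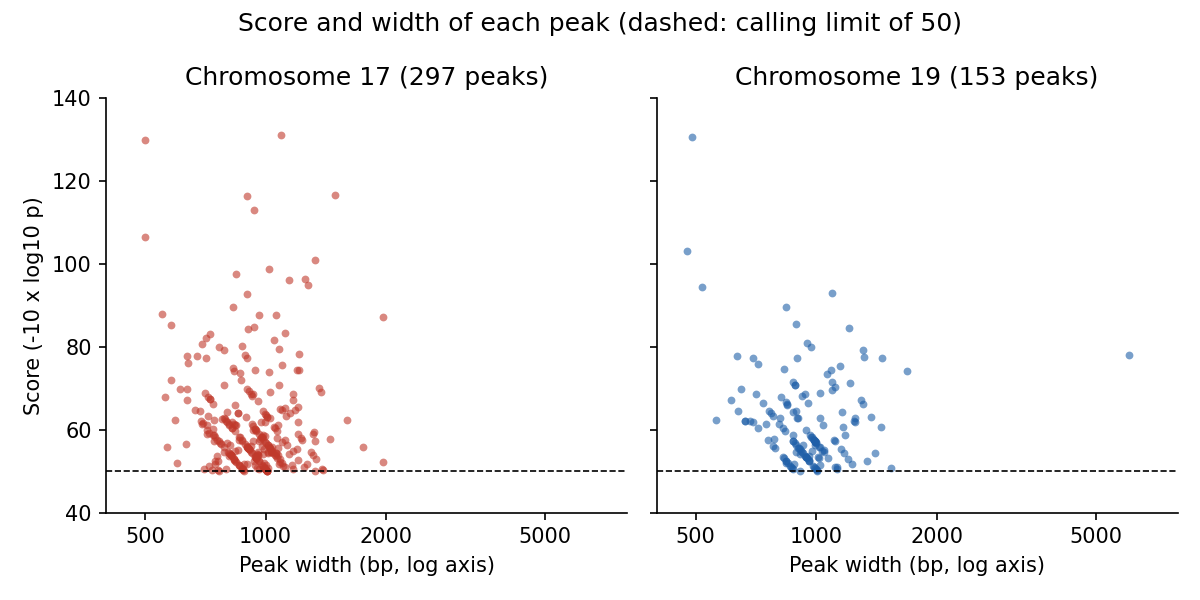
Score (negative log10 of p, times 10) against width (bp, log axis) for each of the 297 peaks of chromosome 17 and the 153 of chromosome 19, with the calling limit of 50 dashed. The points of highest score include several at the narrow end, near 500 bp, and the peak of 6053 bp stands alone at the right on chromosome 19.

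The first peak of chromosome 17 ran from 575270 to 576127 with a score of 51.53, and the last from 80943082 to 80944043 with 87.63. On chromosome 19 the first ran from 814549 to 815411 with 51.25, and the last from 59078058 to 59079062 with 50.20. In the first 5 Mb there were 19 peaks on chromosome 17 and 10 on chromosome 19. With 1 ChIP library, no spread between replicates could be set beside any of these values.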

How the data were processed

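ChIP-seq was performed by the authors on wild-type MDA-MB-231 cells, and 1 peak list, ChIP against input, was deposited. The submitters' processing notes name Bowtie2 2.1.0 and hg19. Peak names identify MACS, and the list name carries a p limit of 1e-05 and the fold limits 10 and 30; version and duplicate handling are not given in the sources used here. The deposited score was read as the negative log10 of p times 10, since the lowest was exactly 50. Starts were raised by 1 so that bases count from 1, and midpoints placed peaks. In total 4 peaks of chromosome 19 lay past the last RefSeq gene on GRCh38, so RefSeq (GRCh38.p14) served for gene numbers and order only. Annotation and sequence of peaks were not analysed here. Densities were compared by exact binomial tests over all chromosomes or windows, with Benjamini-Hochberg adjustment at 0.05. Intervals are at 95%. Windows lay wholly between the first and last peak. The functions, written in Python 3.11.15 with scipy 1.17.1, numpy 2.4.6 and pandas 2.3.3, were tested on simulated data. Members and comparisons were chosen with earlier results of these data known. Named peaks were the 5 highest, 3 widest and 3 narrowest, the first and last peak, the longest empty intervals, closest pairs and fullest and emptiest windows of each chromosome, the 3 highest of each cluster and those in or nearest to the HOXB region. As alternatives, peaks at or above the median score, scores of at least 60, merging within 1 kb, other spans, windows and limits were tried.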

Additional observations from a re-analysis of the deposited data

How the results depend on the processing

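The density of chromosome 19 stayed below the list-wide density and called under each of 5 alternatives, and chromosome 17 stayed uncalled. The ratio of chromosome 17 to the list moved between 0.93 and 1.05 and so turned direction, being below 1 for peaks at or above the median score, for scores of at least 60 and without empty intervals. Calls of windows depended on the setting. The number called higher was 0 in the upper part of the list, for scores of at least 60, with windows moved by 2.5 Mb, with windows of 2 Mb and among windows with at least 1 peak, and 2 with windows of 10 Mb. With both score limits the window called lower was 10 to 15 Mb of chromosome 19 in place of 5 to 10 Mb. The number called lower was 3 of 26 with windows moved by 2.5 Mb and 2 of 11 with windows of 10 Mb. The share of all windows in the list that was called changed as well. It was 17.2% lower and 13.3% higher with windows moved by 2.5 Mb, and 25.8% and 25% with windows of 10 Mb. In the settings with 0 called higher on the pair, from 3.42% to 13.3% of all windows were called higher. The ratio for the zinc finger cluster at the end of the long arm rose to 2.0 for scores of at least 60. It was 1.93 (1.01 to 3.45) for peaks at or above the median score, and 1.09 (0.62 to 1.81) with limits moved inwards by 0.5 Mb. The rest of the chromosome, against which this ratio was taken, includes the sparser short arm. Median width fell to 898.5 bp on chromosome 17 and 890 bp on chromosome 19 in the upper part of the list. Over all annotated genes chromosome 17 ranked 5 and chromosome 19 ranked 3 from the lowest in peaks per gene, in place of 4 and 1. The cause was not tested. No HOXB peak was left at the higher score limits, and the HOXB limits were not moved inwards. Lengths outside assembly gaps, gene annotation and peak sequences were not run. No paired analysis was possible because there is 1 library of each kind. Unknown depth and the lack of replicates limit each value.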

Other observations

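The closest neighbours among the members stood within a few kb of each other. On chromosome 19 a peak ending at 29172438 (score 55.04) and one starting at 29172660 (score 54.13) were 221 bp apart, the only pair of the members nearer than 1 kb. The next pairs, ending at 34665448 and 44743529, had gaps of 1024 and 1794 bp. On chromosome 17 the closest pairs had gaps of 1087 bp after 10456843, 1375 bp after 10750419 and 1936 bp after 46334299. The first and second of these lay in the second fullest window of 1 Mb of the chromosome, from 10 to 11 Mb, and the third was the pair before the HOXB region.

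Exact scores shared by many peaks of the list also occurred here. The value 69.82, found in 85 peaks of the list, was that of 2 peaks on chromosome 17 and 1 on chromosome 19. The value 62.13 (67 peaks) was that of 2 and 3, and the value 77.79 (61 peaks) that of 2 and 1. The members with the value 69.82 were 612 to 648 bp wide, and the median over its 85 peaks was 632 bp.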
